A study of Mus musculus with 22 samples.

Results

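The opioid receptor genes and the precursor gene of the peptide nociceptin were followed through mouse cells and brain regions that carry or lack *Phf8*. The 4 receptor genes are *Oprm1*, *Oprd1* and *Oprk1*, which encode the mu, delta and kappa opioid receptors, and *Oprl1*, which encodes the nociceptin receptor. The ligand gene is *Pnoc*, which encodes prepronociceptin. These 5 genes were chosen by name and were found by their Ensembl identifiers among the 39179 genes counted in each of 22 libraries.

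*Phf8* encodes an X-linked histone demethylase, and the study asked how its loss changes RNA levels. The KO allele is a constitutive deletion, made by removing loxP-flanked exons of the catalytic domain with Cre in V6.5 ESCs that were then used to found the mouse line. ESCs (2 WT, 2 KO) had been grown out of blastocysts on gelatin or feeder cells, and NPCs (3 WT, 3 KO) had been taken from embryos and kept as a monolayer. Prefrontal cortex (PFC) and ventral striatum (STR) came from mice aged 2 months, with 3 WT and 3 KO libraries per region. All WT and KO samples shared the strain background B6x129SvJ and the TruSeq RNA library kit. Whether each library came from its own animal or culture was not given in the sources used here, so p-values measure the spread between libraries, part of which may be technical.

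Total counts on genes ran from 5898286 to 15539811 per library, and the shallowest was the third WT library of PFC. *Phf8* stood between 13.4 and 22.2 CPM (counts scaled to library size) in the KO libraries and between 38.4 and 70.3 CPM in the WT libraries of all 4 sources, so every library matched its genotype label. Reads outside the deleted exons still counted. The brain labels matched their markers: 8 of 8 striatal neuron genes were lower in PFC than in STR and 6 of 8 cortical excitatory neuron genes were higher. A list of 6 pluripotency genes summed to 3330 CPM or more in ESCs and a list of 6 progenitor genes to 6123 CPM or more in NPCs. The second ESC library of each genotype held feeder cell genes at 3521 and 4304 CPM summed over 4 genes, against 157 and 147 CPM in the first. The first KO library of STR stood apart. Its 10 hypothalamic genes summed to 187 CPM, against 31.7 and 22.7 CPM in the other KO libraries and 11.1 to 15.8 CPM in the WT libraries of STR. Its 8 cortical genes summed to 160 CPM, against 465.5 CPM or more in the other STR libraries. Fold changes of the 5 genes that rest on this library are given with and without it.

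Opioid receptors are G protein-coupled receptors that act through inhibitory G proteins, opening potassium channels and closing calcium channels in neurons. Their ligands are short peptides cut from 4 precursors: enkephalins from *Penk*, dynorphins from *Pdyn*, beta-endorphin from *Pomc* and nociceptin from *Pnoc*. The striatum is known for neurons rich in enkephalin or dynorphin and for opioid signals in reward, whereas nociceptin and its receptor form a sister system that binds the classical opioid ligands poorly.

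The peptide-coding stretches of the precursors show how nociceptin belongs to this family and yet stands apart in it. Each stretch below is the coding strand in GRCm38 from the first codon of the peptide up to the next codons for lysine then arginine, read from GENCODE transcripts, with the first codon in capitals. It is a phenylalanine codon in *Pnoc* and a tyrosine codon in the classical precursors, followed in each by codons for glycine, glycine and phenylalanine.
Pnoc, nociceptin, chr14:65404842-65404892, minus strand: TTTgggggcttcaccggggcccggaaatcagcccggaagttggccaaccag
Pdyn, dynorphin A, chr2:129688094-129688144, minus strand: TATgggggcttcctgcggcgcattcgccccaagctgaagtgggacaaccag
Penk, Met-enkephalin, chr4:4134334-4134348, minus strand: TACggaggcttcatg
Penk, Leu-enkephalin, chr4:4133941-4133955, minus strand: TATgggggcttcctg
The *Pnoc* and *Pdyn* stretches have the same length, 51 bases for 17 residues, and 30 of the bases and 6 of the residues are identical. A tyrosine-led core occurs 7 times in the *Penk* precursor, 3 times in that of *Pdyn* and 1 time in that of *Pomc*. The *Pnoc* precursor holds 0 tyrosine-led cores and 1 phenylalanine-led core.

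The receptor genes lie on separate chromosomes. *Oprm1* (ENSMUSG00000000766) spans chr10:6758506-7038198 on the plus strand of GRCm38, with 22 merged exon blocks, and *Ipcef1* overlaps it on the opposite strand by 96 exonic bases. *Oprd1* (ENSMUSG00000050511) lies at chr4:132110726-132144486 on the minus strand in 3 blocks. *Oprk1* (ENSMUSG00000025905) lies at chr1:5588466-5606131 on the plus strand, also in 3 blocks. *Oprl1* (ENSMUSG00000027584) lies at chr2:181715016-181720985 on the plus strand in 7 blocks, and *Pnoc* (ENSMUSG00000045731) at chr14:65400673-65425472 on the minus strand in 4. In the RefSeq promoter table for GRCm38.p6, which covers 250 bases before to 50 after each start, the *Oprd1* promoter held 43 CG dinucleotides, more than 97.4% of 32851 promoters. The 3 *Oprm1* promoters held between 3 and 5 and the 3 *Oprl1* promoters between 2 and 5, where the median of all promoters was 7.

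In culture the system was nearly silent. *Oprm1* had 0 counts in all 4 ESC and all 6 NPC libraries. There 3 counts, the upper limit that a count of 0 allows, equal between 0.193 and 0.262 CPM on raw library totals. *Oprd1* had 3 to 10 counts per ESC library, *Oprk1* 2 to 8, *Oprl1* 5 to 12 and *Pnoc* 1 to 4. In NPCs *Oprd1*, *Oprk1* and *Pnoc* had at most 5 counts in any library. *Oprd1* in NPCs had 0 counts in each WT library and 1, 1 and 3 in the KO libraries. All of these counts were under the filter on low counts. Without it, *Oprd1* in NPCs had an unadjusted p of 0.0422 for genotype, and the adjusted p was 0.9999 or more for each of these genes with any count.

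*Oprl1* was the exception in NPCs. Its counts were 102, 46 and 92 in the WT libraries and 65, 72 and 53 in the KO libraries, a level of 5.85 ± 1.57 CPM (SD, n = 6), against 0.777 ± 0.312 CPM in ESCs (SD, n = 4). The lowest NPC library held more *Oprl1* counts than any ESC library. All cultured libraries remained far under the brain. On raw library totals, the pooled *Oprl1* level in STR was 17.6 times that in NPCs and 139 times that in ESCs. The CPM means, which carry a further scaling between libraries, gave smaller ratios, with 79.3 CPM in STR against 5.85 and 0.777 CPM. *Oprm1* on raw totals was at least 64.0-fold higher in STR than in ESCs and at least 106-fold higher than in NPCs. These limits use a floor of 3 counts over each culture group, and they too would be smaller with the further scaling. Culture and brain may have been counted with different strand settings, so these levels were not tested against each other.

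**Figure D1:**
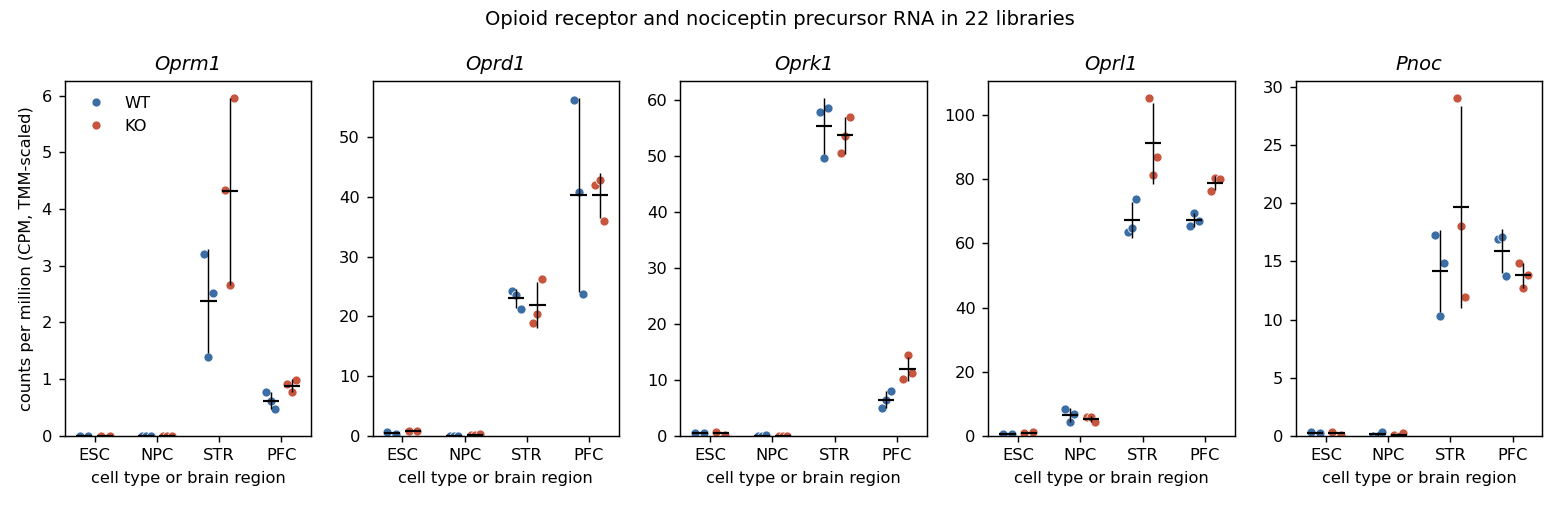
CPM of the 5 genes (vertical axes, each to its own scale) in ESCs, NPCs, STR and PFC, with 1 point per library, WT in blue and KO in red, horizontal bars for the mean and vertical bars for the SD where a group has 3 libraries. *Oprk1* and *Oprm1* stood highest in STR, *Oprd1* in PFC, and only *Oprl1* stood clear of 0 in NPCs, at 5.85 CPM on average.

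The main contrast in the brain was between regions. *Oprk1* and *Oprm1* were lower in PFC than in STR, *Oprd1* was higher, and neither *Oprl1* nor *Pnoc* passed the test. Of 5 genes tested, 3 passed, against 39.8% of all 16028 genes, so a call between these regions was common. Among them, *Oprm1* passed the filter on low counts only through its STR libraries. The 1 gene higher in PFC stands against 19.8% of all genes and the 2 lower against 19.9%. In bulk tissue, fewer cells of a type and less RNA per cell cannot be told apart.

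*Oprk1*, the receptor for dynorphins, gave the widest gap. The STR libraries had 57.9, 49.6 and 58.6 CPM in WT and 50.5, 53.5 and 57.0 CPM in KO. The PFC libraries had 4.98, 6.40 and 7.96 CPM in WT and 10.1, 14.4 and 11.3 CPM in KO. No PFC library reached the level of any STR library. The fitted level was 6.35-fold lower in PFC (log2 fold change -2.67, SE 0.10, adjusted p = 3.5e-11, edgeR quasi-likelihood test), rank 70 of all genes by p, and ran from -2.74 to -2.60 with any 1 library left out. The same contrast was -3.15 among WT libraries alone and -2.19 among KO libraries alone.

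*Oprm1*, the receptor of morphine and beta-endorphin, was scarce in both regions. Its counts were 32, 12 and 21 in WT and 39, 24 and 47 in KO libraries of STR, or 3.34 ± 1.60 CPM (SD, n = 6). In PFC they were 7, 7 and 3 in WT and 8, 7 and 8 in KO, or 0.752 ± 0.188 CPM (SD, n = 6). Groups again did not overlap, and *Oprm1* was 4.29-fold lower in PFC (log2 fold change -2.10, SE 0.28, adjusted p = 2.6e-05, from -2.23 to -1.95 with any 1 library left out). In PFC alone *Oprm1* fell under the filter on low counts, so it was tested between the regions only through its STR counts. With at least 10 counts asked of every library, *Oprm1* was no longer tested. *Oprm1* and *Oprk1* were thus 2 genes of 5 with all PFC libraries under all STR libraries, as were 9.76% of all genes. *Ipcef1*, which overlaps *Oprm1*, went the other way, 2.60-fold higher in PFC (adjusted p = 1.9e-04). The strand setting of the brain counts was not given, so reads in the shared exon could not be assigned.

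*Oprd1*, a receptor for enkephalins, was the receptor with more RNA in PFC. STR libraries had 24.3, 23.6 and 21.2 CPM in WT and 19.0, 20.3 and 26.2 CPM in KO. PFC libraries had 56.3, 40.8 and 23.7 CPM in WT and 41.9, 42.8 and 36.0 CPM in KO. The third WT library of PFC fell inside the STR range and the other 5 PFC libraries stood above it. The fit gave a 1.78-fold higher level in PFC (log2 fold change 0.83, SE 0.16, adjusted p = 0.00101), between 0.67 and 0.96 with any 1 library left out.

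*Oprl1* had similar levels in both regions, 73.1 ± 6.65 CPM in PFC and 79.3 ± 15.7 CPM in STR (SD, n = 6 each). Its log2 fold change was -0.13 (95% confidence interval -0.27 to 0.01, adjusted p = 0.144). Without the first KO library of STR it was -0.065 (adjusted p = 0.407 by the same quasi-likelihood test). *Pnoc* had 14.9 ± 1.79 CPM in PFC and 16.9 ± 6.66 CPM in STR (SD, n = 6 each), with log2 fold change -0.19 (95% interval -0.60 to 0.21, adjusted p = 0.448). Most of the *Pnoc* difference came with the first KO library of STR, at 29.1 CPM, and without it the estimate was 0.0066. Both genes of the nociceptin pair had at least 10.3 CPM in every brain library, and both intervals held 0.

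**Figure D2:**
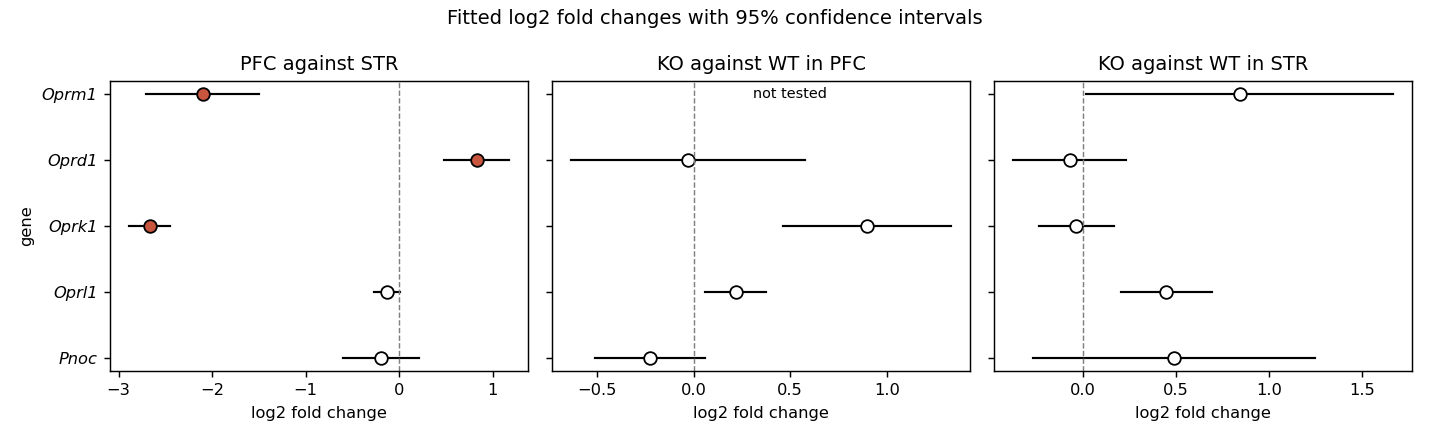
Fitted log2 fold changes (points) with 95% confidence intervals (lines) for the 5 genes, PFC against STR (left), KO against WT in PFC (middle) and KO against WT in STR (right), with filled points where the adjusted p was under 0.05. *Oprm1*, *Oprd1* and *Oprk1* are filled on the left, at -2.10, 0.83 and -2.67, and no point is filled for KO against WT. *Oprm1* was under the filter on low counts in PFC and has no point for genotype there.

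Read against each other per exon length (RPKM, computed here with GENCODE lengths), the receptors summed to 30.6 ± 3.21 RPKM in PFC and 33.1 ± 3.96 RPKM in STR (SD, n = 6 each). *Oprl1* made up most of this sum, 64.0% ± 5.92 in PFC and 63.4% ± 5.24 in STR (exact permutation test, two-sided, 6 against 6, adjusted p = 0.859 over 4 receptors). This depends on the scale: in shares of summed CPM, with no division by length, *Oprl1* was 10.2 points higher in PFC (same test, adjusted p = 0.013). The rest was divided differently. *Oprd1* took 32.4% ± 6.63 in PFC and 17.1% ± 3.15 in STR, whereas *Oprk1* took 3.27% ± 1.07 in PFC and 18.2% ± 2.51 in STR. *Oprm1* took 0.303% ± 0.0568 and 1.22% ± 0.482. Each of these 3 shares separated all PFC from all STR libraries, with an adjusted p of 0.00289 by the exact permutation test, from the smallest p that 6 against 6 allows, 0.00216. That test shuffled libraries without regard to genotype or replicate number, and a paired form was not run. The shares are parts of the same sum, so they are not separate results. In PFC the order was *Oprl1*, *Oprd1*, *Oprk1*, *Oprm1*. In STR *Oprd1* and *Oprk1* were level within their spread only per exon length. In CPM, *Oprk1* stood at 54.5 ± 3.89 and *Oprd1* at 22.4 ± 2.71 in STR (SD, n = 6 each). The shares depend on the merged exon lengths, 9151 bases for *Oprk1* and 4021 for *Oprd1*. Shares of *Oprm1* depend on its 8037 bases of merged exon, which pool many annotated transcripts.

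**Figure D3:**
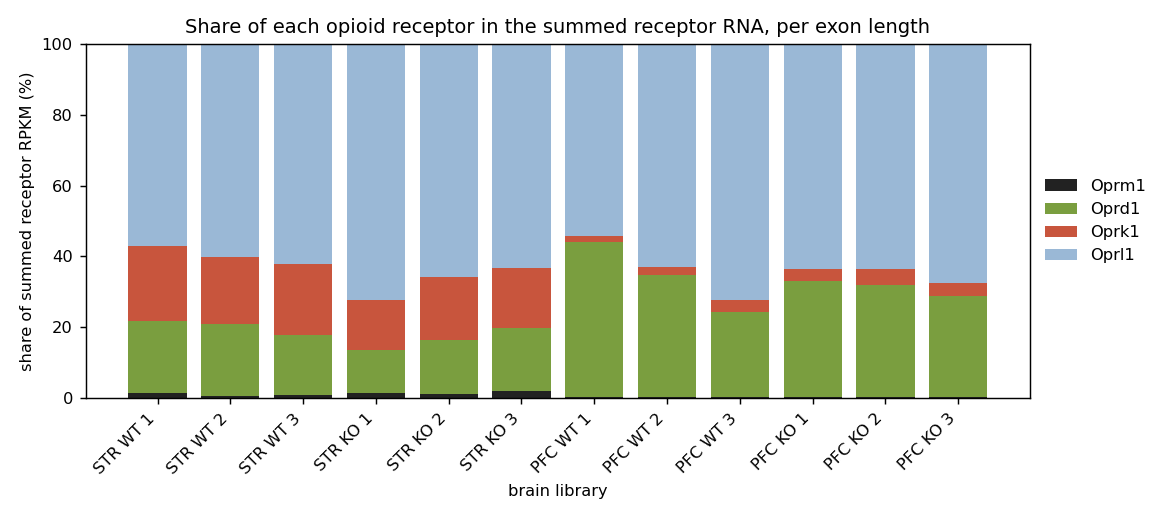
Share of each receptor (colours) in the summed receptor RPKM (vertical axis, percent) of each of the 12 brain libraries (horizontal axis). *Oprl1* fills most of every bar, *Oprk1* is broad in STR (18.2% on average) and thin in PFC (3.27%), and *Oprd1* is broader in PFC (32.4%) than in STR (17.1%).

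The classical precursors followed the regions. *Penk* had 196.6 ± 13.6 CPM in STR and 45.4 ± 3.04 CPM in PFC (SD, n = 6 each), a 4.40-fold lower level in PFC (adjusted p = 2.1e-12). *Pdyn* had 204.4 ± 22.3 and 47.9 ± 4.17 CPM, 4.34-fold lower in PFC (adjusted p = 1.0e-11). *Pomc* did not pass (log2 fold change -0.87, SE 0.57, adjusted p = 0.263). Its STR values ran from 3.29 to 6.001 CPM apart from 16.4 CPM in the first KO library. Its PFC values ran from 1.32 to 4.09 CPM apart from 11.1 CPM in the third WT library. No *Pomc* estimate without either library is given here. Per exon length, *Pnoc* stood at 7.84 RPKM in STR and 6.89 RPKM in PFC, under *Penk* at 120 and 27.8 RPKM and *Pdyn* at 70.8 and 16.6 RPKM.

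The second question was what loss of *Phf8* does to these genes, and none that could be tested passed in any tissue. In PFC, 4 of them had enough counts to be tested and 0 passed an adjusted p of 0.05, against 0.638% of all 15364 genes. In STR all 5 were tested and 0 passed, as did 0 of 15476 genes in all, where 1346 genes had an unadjusted p under 0.05 and DESeq2 called 53. *Phf8* itself did not pass in STR (log2 fold change -1.37), though its KO libraries had 13.4 to 20.2 CPM and its WT libraries 43.5 to 49.8 CPM. A gene that did not pass there may thus still differ between the genotypes.

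*Oprk1* in PFC came nearest to the threshold. The WT libraries had 45, 73 and 51 counts and the KO libraries 89, 131 and 92. In CPM the highest WT library stood at 7.96 and the lowest KO library at 10.1, so the genotypes did not overlap. The fitted level was 1.86-fold higher in KO (log2 fold change 0.90, SE 0.20, 95% interval 0.46 to 1.33), with an unadjusted p of 0.00075 and an adjusted p of 0.0723 by edgeR's quasi-likelihood test, rank 159 of 15364. It passed with DESeq2 (adjusted p = 0.0216), the likelihood ratio test (0.0033), no filter on low counts (0.0016), the replicate number as a block (0.0397) and without the third WT library (0.0441). Leaving out any 1 library kept the log2 fold change between 0.74 and 1.05 and put the adjusted p between 0.0441 and 0.309.

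**Figure D4:**
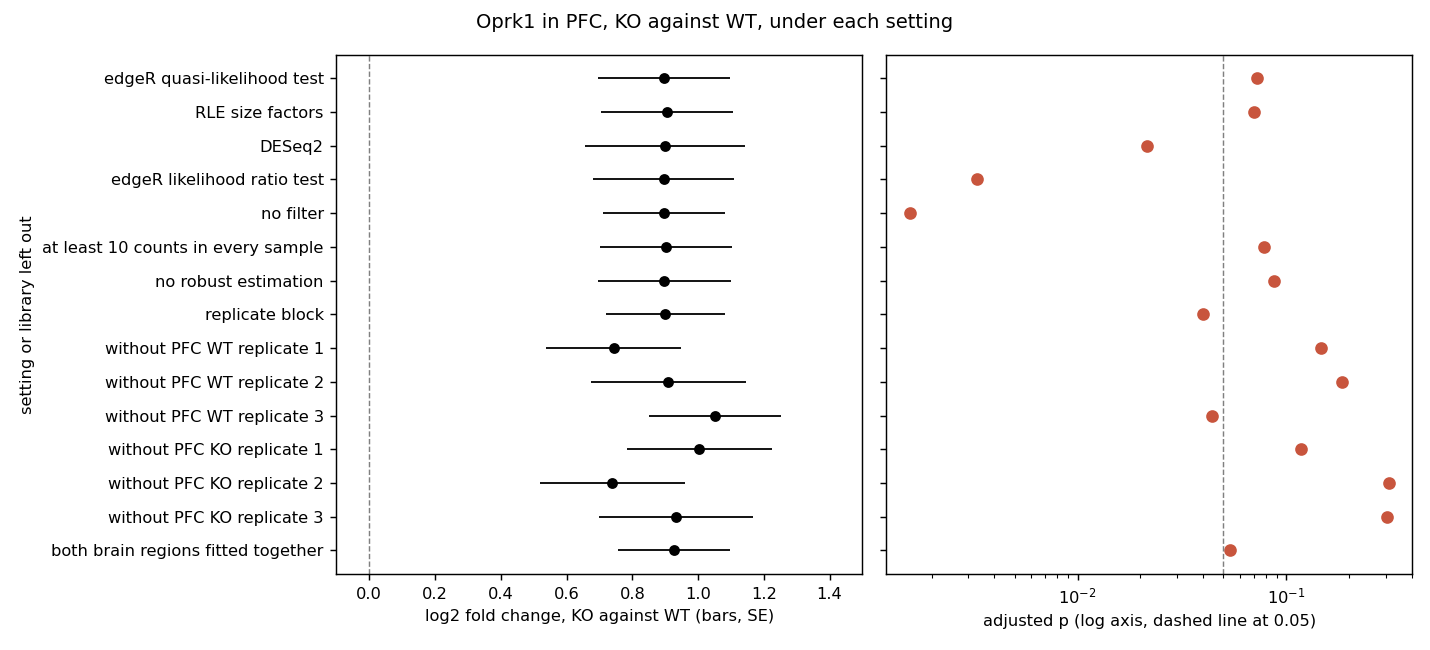
Log2 fold change of *Oprk1* in PFC, KO against WT, with SE bars (left), and its adjusted p on a log axis with a dashed line at 0.05 (right), for the quasi-likelihood test, each other setting and each library left out (rows). Every estimate lies between 0.74 and 1.05, and the adjusted p falls on both sides of the line.

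In STR the *Oprk1* levels of both genotypes overlapped, with 55.3 ± 5.01 CPM in WT and 53.6 ± 3.25 CPM in KO (SD, n = 3 each) and a log2 fold change of -0.04 (95% interval -0.24 to 0.17, adjusted p = 0.959). The difference between the regions was tested as an interaction and did not pass: 0.97 on the log2 scale (SE 0.21, 95% interval 0.52 to 1.41, unadjusted p = 0.00036, adjusted p = 0.384), rank 12 of 16028 genes. DESeq2 gave an adjusted p of 0.0335 for it, the likelihood ratio test 0.0111, and the block 0.0812. In all, 1 gene, or 0.00624%, passed this interaction in the main test.

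Some marker lists of other cells also separated the genotypes in PFC. Among all 15364 genes, 0.638% passed there, and 2628 had genotypes that did not overlap in CPM. The claustrum and endopiriform list, 4 genes, summed to 236 to 265 CPM in KO and 202 to 219 CPM in WT, and 1 of its genes, *Gnb4*, passed (adjusted p = 0.0341). The striosome list, 5 genes, summed to 215 to 241 CPM in KO and 182 to 196 CPM in WT, and *Lypd1* passed (adjusted p = 0.0432). The 8 striatal neuron genes overlapped, with sums of 269 to 321 CPM in KO and 251 to 291 CPM in WT and 0 passing. Lower in KO were the oligodendrocyte list (925 to 973 against 1071 to 1435 CPM, 2 of 4 passing) and the astrocyte list (599 to 629 against 674 to 703 CPM, 1 of 4 passing). The list of 6 progenitor genes was also lower in KO (149 to 157 against 168 to 200 CPM, 0 passing). No defining marker of these lists was at 0 in PFC. Their part in the *Oprk1* difference was not tested.

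Every KO library held more *Oprl1* than any WT library of its region in both PFC and STR, yet the test was passed in neither. In PFC the WT libraries had 65.4, 69.6 and 66.8 CPM and the KO libraries 76.2, 80.4 and 80.0 CPM. In STR they had 63.7, 64.6 and 73.8 CPM in WT and 105, 81.3 and 86.9 CPM in KO. *Oprl1* and *Oprk1* were the 2 genes of 4 with all KO above all WT libraries in PFC, a pattern that 8.72% of all genes showed there, and *Oprl1* was the only gene of 5 with it in STR, where 6.49% of all genes showed it. The log2 fold change was 0.22 in PFC (95% interval 0.06 to 0.37, adjusted p = 0.242) and 0.45 in STR (95% interval 0.20 to 0.69, adjusted p = 0.397, rank 85 of 15476). Without the first KO library of STR it was 0.32 (adjusted p = 0.851), and over all libraries the likelihood ratio test alone put it under the threshold (adjusted p = 0.0433).

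Marker lists also separated the genotypes in STR, as *Oprl1* did. Higher in KO were the hypothalamic list (22.7 to 187 against 11.1 to 15.8 CPM), the thalamic list of 4 genes (81.5 to 154 against 60.8 to 77.7 CPM) and the astrocyte list (619 to 664 against 587 to 612 CPM). The claustrum and endopiriform list was lower in KO (280 to 321 against 343 to 361 CPM). With the first KO library left out, the hypothalamic and thalamic lists still did not overlap, the other KO libraries standing at 22.7 and 31.7 CPM and at 81.5 and 82.4 CPM. In these 4 lists 0 genes passed, but so did 0 of all 15476 genes in STR, so this says nothing particular about the lists. Of the 10 hypothalamic genes, 7 were under the filter. Of the hypothalamic genes, 1 was at 0 in all WT libraries of STR, and 0 genes of the other 3 lists were at 0. Their part in the *Oprl1* difference was not tested.

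In NPCs, the only culture with enough counts, the *Oprl1* estimate lay below 0 (log2 fold change -0.31, 95% interval -0.98 to 0.36, adjusted p = 0.9998). It was -0.09 without the first WT library, -0.18 without the third KO library and -0.52 without the second WT library. In NPCs 1 gene of 14351 (0.00697%), *Phf8* itself, passed, and 3 passed with the replicate number as a block, where *Oprl1* had an adjusted p of 0.708. In ESCs 0 of the 5 genes had enough counts to be tested. Of 15080 genes there, 0 passed by edgeR's quasi-likelihood test, with 171 at an unadjusted p under 0.05. *Phf8* was among those that did not pass it in ESCs (log2 fold change -1.79). The likelihood ratio test called 1 gene there, DESeq2 called 3 and the quasi-likelihood test with the replicate block called 513.

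*Pnoc* in STR had an estimate that moved with single libraries. Its WT libraries had 17.2, 10.3 and 14.9 CPM and its KO libraries 29.1, 18.0 and 11.9 CPM. The genotypes overlapped, and the log2 fold change of 0.49 (SE 0.33, adjusted p = 0.741) fell to 0.09 without the first KO library and was 0.75 without the third (unadjusted p = 0.0187, adjusted p = 0.394). It was 0.30 without the second WT library. The first KO library also held the highest *Oprl1*, *Pomc*, hypothalamic and thalamic values among the 6 STR libraries. Their part in the *Pnoc* value was not tested. In PFC *Pnoc* had 16.9, 17.1 and 13.7 CPM in WT and 14.9, 12.7 and 13.8 CPM in KO, with a log2 fold change of -0.23 (95% interval -0.51 to 0.06, adjusted p = 0.591).

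**Figure D5:**
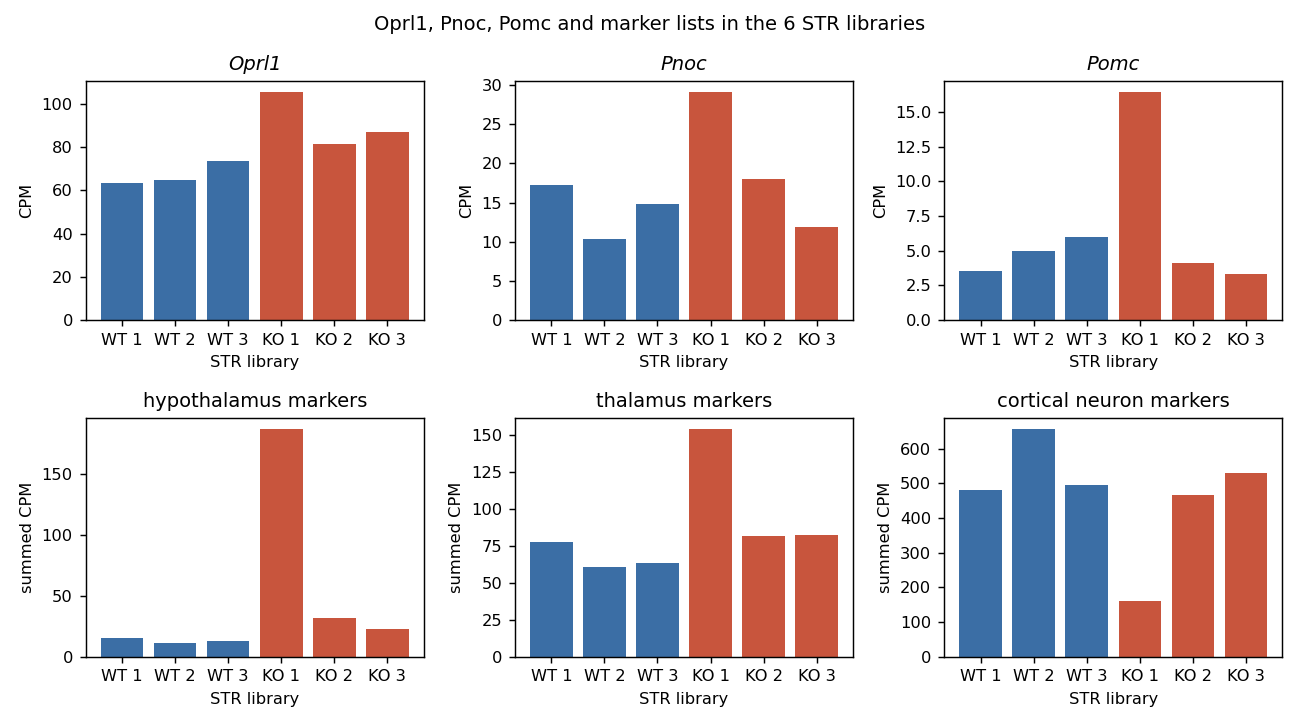
CPM of *Oprl1*, *Pnoc* and *Pomc* (top) and summed CPM of hypothalamus, thalamus and cortical neuron markers (bottom) in the 3 WT (blue) and 3 KO (red) libraries of STR. KO 1 has the highest bar for *Oprl1* (105 CPM), *Pnoc* (29.1 CPM), *Pomc* (16.4 CPM) and the hypothalamus list (187 CPM), and the lowest for the cortical list (160 CPM).

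*Oprd1* and *Oprm1* gave wide intervals. *Oprd1* had close means in both genotypes of PFC, 40.3 ± 16.3 CPM in WT and 40.2 ± 3.70 CPM in KO (SD, n = 3 each), and the spread of its WT libraries left an interval of -0.63 to 0.58 on the log2 scale (adjusted p = 0.985). In STR the log2 fold change was -0.07 (95% interval -0.38 to 0.23, adjusted p = 0.936). *Oprm1* in STR had a log2 fold change of 0.84 (95% interval 0.02 to 1.67, adjusted p = 0.570), with overlapping genotypes at 12 to 32 counts in WT and 24 to 47 counts in KO. In PFC *Oprm1* had 3 to 7 counts in WT and 7 to 8 in KO, which left it under the filter. Without the filter its log2 fold change was 0.46 (SE 0.50, adjusted p = 0.784), and with both regions fitted together it was 0.49 (SE 0.50, adjusted p = 0.848). *Penk*, *Pdyn* and *Pomc* did not pass in either region (adjusted p of 0.671 or more), with log2 fold changes of *Penk* at -0.05 in PFC and -0.04 in STR.

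In the wider pathway, genes of each list passed between the regions, where 19.8% of all 16028 genes were higher in PFC and 19.9% lower. The shares in these short lists are read against 39.8% of all genes called. Of 7 enzymes and helpers that cut and finish neuropeptides, 3 were higher in PFC, namely the convertases *Pcsk1* (log2 fold change 1.17) and *Pcsk2* (0.44) and the amidating enzyme *Pam* (0.25), and 0 were lower. Among 5 peptidases that degrade enkephalins, neprilysin (*Mme*) was 3.91-fold lower in PFC, while *Anpep* (0.80) and *Dpp3* (0.17) were higher. Of 6 channels on which the receptors act, the potassium channel subunits *Kcnj6* (1.60), *Kcnj9* (1.22) and *Kcnj3* (1.07) and the calcium channel gene *Cacna1a* were higher in PFC and *Kcnj5* (-2.45) was lower. The median of this list was 0.86, against -0.02 over all genes tested.

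Among 12 RGS genes, whose products speed the switching off of G proteins, 2 were higher and 6 lower in PFC, against 19.8% and 19.9% of all genes, with *Rgs9* 11.8-fold lower and *Rgs7* higher (0.59). The list had a median of -0.25. Of 7 receptor kinases and arrestins, 3 were higher in PFC, *Grk3* (0.61), *Grk2* (0.40) and *Arrb1* (0.15), and 0 were lower. Of 5 inhibitory G protein alpha genes, *Gnaz* (0.38) and *Gnai3* (0.24) were higher and *Gnai2* (-0.16) lower. The background of 39.8% called holds for these lists too. For KO against WT, 0 genes of these 6 lists passed in PFC or in STR, where 0.638% and 0% of all genes passed.

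Genes with the profile most like each of the 5 over the 12 brain libraries were taken by Pearson's r of log2(CPM + 0.5), as a description only, since the region difference enters r. For *Oprk1* they were *Nts* (0.988), which encodes the peptide neurotensin, *Kcna5* (0.986) and *Smarcd3* (0.985), and 630 genes reached an r of 0.9. For *Oprm1* they were *BC052040* (0.968), *Robo1* (0.966) and *Isoc1* (0.964), and for *Oprd1* *Eif2ak3* (0.968), *H2-M6-ps* (0.956) and *A730060N03Rik* (0.953). *Oprl1* was closest to *Arl10* (0.949), *Pcdh18* (0.941) and *4632428C04Rik* (0.934), with 9 genes at 0.9 or more. *Pnoc* was closest to *Osbpl7* (0.926), *Tgfbi* (0.908) and *Heph* (0.907), with 4. *Oprl1* and *Pnoc*, receptor and ligand, had an r of 0.48 with each other. Both stood highest in the first KO library of STR (105 and 29.1 CPM). Their r was not computed without that library, so it may rest on it. Among the receptors, *Oprm1* with *Oprk1* had 0.87 over all 12 libraries and 0.20 once each region's mean was removed.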

How the data were processed

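Per the paper's methods and the labels, the authors mapped the reads of 22 samples with STAR (build mm10, or GRCm38). They deposited the unnormalized count of each Ensembl gene, made with HTSeq. Base calls were made with CASAVA 1.7. HTSeq's strand setting for brain was not given in the sources used here. Gene names, positions and lengths came from GENCODE M21, a later annotation, matching 37693 of 39179 identifiers and 99.709% of counts. HTSeq left out reads with more than one alignment, between 7.62% and 8.90% of reads in PFC and between 43.2% and 45.5% in ESCs.

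Groups and replicate numbers came from sample titles. Regions and genotypes were compared with edgeR 4.0.16 in R 4.3.3 (quasi-likelihood test, TMM, robust estimation, filterByExpr), fitted over all genes with Benjamini-Hochberg adjustment and a threshold of 0.05. PFC against STR and the interaction used all 12 brain libraries. Each genotype test used its own tissue. CPM was scaled by TMM over all libraries. Receptor shares were tested with an exact permutation test in scipy 1.17.1. The code was tested on simulated data. Alternatives are given in the closing section.

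The 5 genes, the pathway and marker lists, and the rule for named genes (the 5, their precursors, up to 4 genes per list by smallest p, nearest neighbours and the 3 genes of highest r) were chosen with earlier results of these data known. *Kcnj6*, *Gnb4* and *Lypd1* fall outside this rule and were named after their values were seen. Another gene list of the design is not reported here. Replicates of each group differed by more than counting error (chi-square over its degrees of freedom, 1.83 to 37.3). Same-numbered samples deviated together in ESCs (correlation 0.845). With 2 ESC libraries per genotype, both pairs give the same value by construction. Same-numbered samples also deviated together in NPCs (0.473 to 0.688) and between PFC and STR of one genotype (0.127 to 0.349). Between WT and KO of PFC (-0.030 to 0.039) or STR (-0.020 to 0.123) they did not.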

Additional observations from a re-analysis of the deposited data

How the results depend on the processing

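The 3 calls between PFC and STR held under every setting and with any 1 library left out, except that *Oprd1* (0.83) fell short of an added log2 fold change beyond 1 and *Oprm1* was not tested with at least 10 counts in every sample. The *Pnoc* estimate turned to 0.15 in WT samples alone, was -0.55 in KO samples alone (adjusted p = 0.200) and ran from -0.32 to 0.0066 with 1 library left out, the last without STR KO replicate 1. The call of *Oprk1* in PFC depended on the setting: 1 of the 5 genes was called there with DESeq2, the likelihood ratio test, no filter, the replicate block or without PFC WT replicate 3 (range 0 to 1 over libraries left out), and 0 otherwise. The likelihood ratio test called 1 of the 5 genes in STR (*Oprl1*), and it and DESeq2 each called 1 in the interaction (*Oprk1*). Without robust estimation, with RLE size factors or with at least 10 counts in every sample, 0 of the 5 were called for genotype. The sign of *Oprd1* was not settled: in PFC it was 0.031 with the replicate block and -0.26 to 0.27 with 1 library left out, in STR -0.21 to 0.011, and in the interaction -0.17 to 0.38. *Oprk1* in STR ran from -0.11 to 0.0047.

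Counts over all genes moved more. Between the regions 1444 genes also passed a log2 fold change beyond 1, and 3791 were called from WT samples alone, against 6374. For KO against WT in PFC, 98 became 196 (DESeq2), 388 (likelihood ratio test), 379 (no filter), 21 (both brain regions fitted together), 18 (log2 fold change beyond 1) and 2 to 154 with 1 library left out (2 without PFC KO replicate 2 or 3). In STR, 0 became 53 (DESeq2), 94 (likelihood ratio test), 27 (no filter), 13 (both regions together) and 0 to 2 with 1 library left out. In NPCs, 1 became 5 (DESeq2), 2 (likelihood ratio test), 2 (no filter) and 0 with any library left out. In ESCs, 0 became 3 (DESeq2) and 1 (likelihood ratio test). In the interaction, 1 became 19 (DESeq2), 26 (likelihood ratio test), 2 (no filter) and 1 to 3 with 1 library left out. With the replicate number as a block, 8 genes were called in STR, 3 in NPCs, 513 in ESCs and 12 in the interaction, and apart from *Oprk1* in PFC it changed no call among the 5 genes. The causes of these moves were not tested.

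The *Oprl1* share of summed receptor RNA was 10.2 points higher in PFC when shares were taken from CPM (adjusted p = 0.013), -2.29 points in KO samples alone, and -1.09 to 2.49 with 1 library left out. With WT or KO samples alone, 3 against 3 cannot pass, and the PFC minus STR differences were -0.71 and -1.13 points for *Oprm1*, 14.9 and 15.7 for *Oprd1*, and -17.6 and -12.3 for *Oprk1*. CPM without TMM scaling moved 11 of 40 group means by more than their SD: *Oprd1* to 0.715 (ESC KO) and 26.5 (STR WT), *Oprk1* to 0.436 (ESC WT), 63.7 (STR WT) and 61.8 (STR KO), *Oprl1* to 77.6 (STR WT), 105.2 (STR KO), 74.1 (PFC WT) and 85.7 (PFC KO), and *Pnoc* to 0.239 (ESC WT) and 15.0 (PFC KO). Depth limited *Oprm1* most, with 3 to 8 counts per PFC library.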

Other observations

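The genes beside the 5 on their chromosomes were read as well. Of 12 neighbouring or overlapping protein-coding genes, 9 were tested between the regions, with 2 higher and 3 lower in PFC, against 19.8% and 19.9% of all genes. For genotype 0 passed in PFC or STR, where 0.638% and 0% of all genes passed. *Npbwr1*, which encodes a neuropeptide receptor and is the next gene after *Oprk1* at a distance of 307576 bases, was 2.48-fold lower in PFC than in STR (adjusted p = 7.6e-04). In PFC its KO libraries had 1.704 to 2.08 CPM and its WT libraries 0.789 to 1.11 CPM (log2 fold change 1.02, SE 0.31, adjusted p = 0.196). These are low levels, as 3 counts equal 0.296 to 0.509 CPM on raw library totals in PFC. There 8.72% of all genes had all KO above all WT libraries. *Atp6v1h*, the next gene on the other side of *Oprk1*, had log2 fold changes of 0.10 between the regions (adjusted p = 0.300) and -0.05 for genotype in PFC (adjusted p = 0.917). *Zfp395*, which lies 1743 bases from *Pnoc*, was lower in PFC than in STR (log2 fold change -0.42, adjusted p = 0.0096), and for genotype gave -0.40 in PFC (adjusted p = 0.263) and 0.32 in STR (adjusted p = 0.662). *Myt1*, after *Oprl1*, was lower in PFC (-1.21, adjusted p = 1.9e-07).

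Genes marking inhibitory and cholinergic neurons were called between the regions as well, where 19.8% of all genes were higher in PFC and 19.9% lower. Of 8 genes listed for inhibitory neurons, 4 were higher in PFC, among them *Vip* (log2 fold change 2.02). *Gad2* (-1.26) and *Gad1* (-0.42), which make GABA, were lower. The list does not tell interneurons from other inhibitory neurons. The 3 cholinergic genes tested were all lower in PFC, with *Chat*, the enzyme that makes acetylcholine, at -6.43. Their part in the region differences of the receptor genes was not tested.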
